A study of Saccharomyces cerevisiae with 27 samples.

Results

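Divergent promoter regions are the stretches of the yeast genome from which a pair of neighbouring genes is read outwards in opposite directions. They were taken here as gaps of 150 to 1000 bp between neighbouring genes of Saccharomyces cerevisiae (build sacCer3) with the left gene on the minus strand and the right gene on the plus strand. The rule used only coordinates and strand and found 1213 gaps among the 5955 gaps between neighbouring genes in the table. These gaps were bordered by 2426 of its 6692 genes. The study compared deletion mutants of Ino80 complex subunits and of the silencing protein Sir3 with wild type, all grown in rich medium (YPD) to an OD600 of 0.8 to 1 for RNA and histone marks. RNA came from arp5Δ (3 libraries), ies6Δ (3), ies2Δ (2), sir3Δ (3) and the double deletion sir3Δ, arp5Δ (1), with wild type BY4741 (3) as their reference, and from ino80Δ (2) with wild type CY337 (2) as its reference. Chromatin immunoprecipitation (ChIP) of the trimethylated histone H3 marks H3K4me3 and H3K79me3 was made in arp5Δ and BY4741 with 1 library of each. ChIP of the Arp5 protein was made in 1 library of strain CY1838, whose cells had been held in G2/M by nocodazole before they were let go into medium with alpha-factor and collected at an OD of 0.6, and whose chromatin fragments were made by micrococcal nuclease. The deletions are called arp5, ies6, ies2, ino80, sir3 and sir3 arp5 from here on.

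A divergent gap usually holds the promoters of both genes, and such regions are depleted of nucleosomes and flanked by the first nucleosome of each gene. Antisense and non-coding RNA can start from the same nucleosome-depleted stretch. The Ino80 complex is an ATP-dependent chromatin remodeller that moves nucleosomes beside promoters. Ino80 is its ATPase, Arp5 and Ies6 act together as a module of it, and Ies2 is a further subunit. H3K4me3 marks the nucleosomes at the start of transcribed genes, H3K79me3 lies over the bodies of genes and is low in silent chromatin, and Sir3 is a structural protein of that silent chromatin.

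The gaps ran from the coding start of the left gene to the coding start of the right gene, so they include the 5′ untranslated stretches of both. Their length had a median of 440 bp, with quartiles at 272 and 640 bp. Just inside the lower limit lay ACF2-RMP1 and NSG1-WSS1 at 151 bp, and just outside it SPE4-YLR146W-A at 144 bp and GDH1-YOR376W at 148 bp. At the upper limit, SMI1-BNS1 at 994 bp and YOR277C-HEM4 at 993 bp were inside, and MNT2-ADH4 at 1001 bp and GSP2-YOR186W at 1004 bp were outside. Of the 1213 gaps, 32 lay within 20 kb of a chromosome end, 28 lay on chromosome III and 45 held another RNA gene. For comparison, 2351 gaps of the same length range lay between genes on one strand (tandem) and 1045 between genes that point at each other (convergent).

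Each genotype has 1 column of FPKM (fragments per kilobase of transcript, scaled to library size) that the authors pooled over libraries, and each ChIP table comes from 1 library. No value below therefore has a replicate error or a test, and depth per library is unknown from these files. The deleted genes checked the RNA labels: ARP5 had 0 FPKM in arp5, against 35.02 in BY4741, and IES2 had 0 FPKM in ies2, against 62.8 in BY4741. IES6 had 0.225 FPKM in ies6, against 185 in BY4741. INO80 had 0.523 FPKM in ino80, against 22.1 in CY337, and SIR3 had 0.0572 FPKM in sir3, against 10.04 in BY4741. The arp5 ChIP libraries carry a wild-type genotype label and an arp5 title. Over the 46 windows of the ARP5 gene their H3K79me3 values had a median of 0, against 1.06 in BY4741, on a log2 scale over input.

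RNA within divergent gaps was higher in the mutants of the Ino80 complex than in wild type. The authors' deposited tables give the log2 ratio of mutant over wild type in 100 bp windows before each gene, and the mean over the windows inside a gap was taken as that gap's RNA change. Its median over the 1213 divergent gaps in the authors' deposited tables was 0.77 in arp5, 0.69 in ies6, 0.37 in ies2 and 0.87 in ino80. In sir3, a mutant outside the complex, the median in the authors' deposited table was -0.03. Ratios of pooled RNA cannot tell more RNA per cell from more cells that make it.

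The gain in arp5 and ies6 was larger in divergent gaps than in the other orientations. In the authors' deposited table for arp5, tandem gaps had a median of 0.46 and convergent gaps 0.07, below the 0.77 of divergent gaps. For ies6 the authors' deposited table gave 0.69 in divergent, 0.47 in tandem and 0.17 in convergent gaps. For ino80 it gave 0.87, 0.77 and 0.43 in the same order, so tandem gaps lay closer to divergent ones there. Over all lengths, divergent and tandem gaps were alike in ies2, at 0.37 and 0.38 in the authors' deposited table, with convergent gaps at 0.22. In ies2 gaps under 300 bp the authors' deposited table gave 0.16 in divergent and 0.32 in tandem gaps. At 500 to 1000 bp it gave 0.49 and 0.42, and between these lengths 0.34 and 0.38. Gap length differed too, with medians of 440 bp in divergent, 374 bp in tandem and 287 bp in convergent gaps. In arp5 the authors' deposited table gave 0.87, 0.43 and 0.02 in that order under 300 bp. At 500 to 1000 bp it gave 0.76, 0.50 and 0.33.

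**Figure D1:**
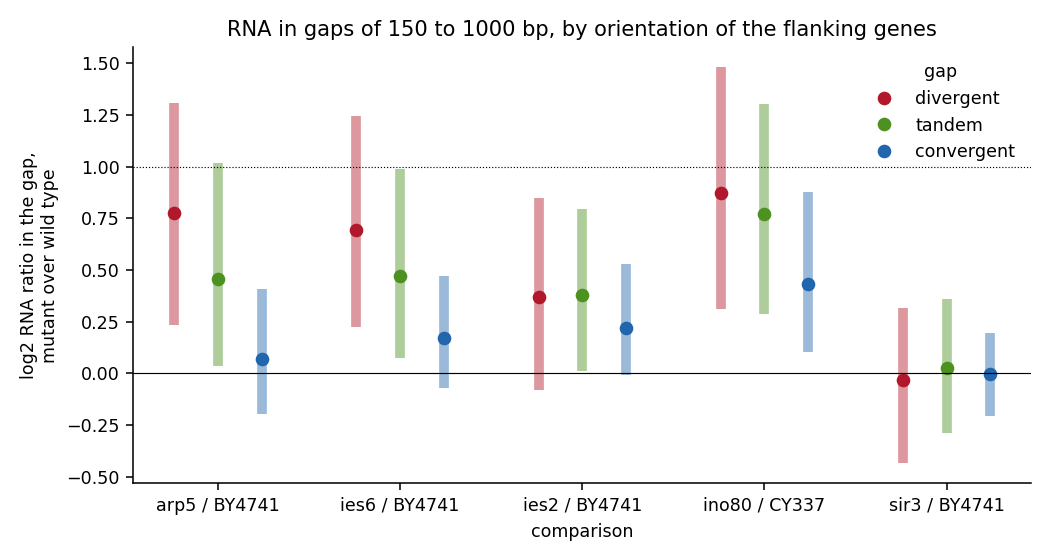
RNA in gaps of 150 to 1000 bp by the orientation of the bordering genes, as the log2 ratio of mutant over wild type in the authors' deposited tables; points are medians over gaps and bars run between the quartiles. In arp5 divergent gaps have a median of 0.77, against 0.07 in convergent gaps, and in sir3 all orientations lie near 0.

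Single gaps were counted past 2-fold. Per the authors' deposited table, 448 of the 1213 divergent gaps (36.9%) had more than 2-fold more RNA in arp5, beside 24.1% of gaps of all orientations. The count was 422 gaps (34.8%) in ies6, beside 23.4%, and 531 gaps (43.8%) in ino80, beside 35.4%, in the authors' deposited tables. It was 223 gaps (18.4%) in ies2, beside 14.3%, and 72 gaps (5.94%) in sir3, beside 4.27%. More than 2-fold less RNA was found in 19 divergent gaps (1.57%) in arp5, beside 1.71% of gaps of all orientations, in the authors' deposited tables. The count was 15 gaps (1.24%) in ies6, beside 1.19%, and 10 gaps (0.824%) in ino80, beside 0.933%. It was 37 gaps (3.05%) in ies2, beside 1.58%, and 87 gaps (7.17%) in sir3, beside 4.21%, so in sir3 lower gaps outnumbered higher ones.

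The ratios were lower in the coding sequence of the bordering genes than in the gap. In the authors' deposited table for arp5 the median was 0.37 in the first 100 bp from a gene, 0.78 in the next 100 bp and between 0.74 and 0.77 up to 500 bp into the gap. Along the gene bodies it lay between 0.02 and 0.09 in arp5, and for ino80 the authors' deposited table gave between 0.10 and 0.28. In gaps of 500 bp or more, the middle had a median of 0.91 in arp5, against 0.35 in the 100 bp nearest a gene, and was the higher of both in 335 of 493 gaps, in the authors' deposited table. The same comparison gave 0.70 and 0.30 in ies6, 0.59 and 0.19 in ies2, and 0.84 and 0.45 in ino80, from the authors' deposited tables. In the authors' deposited table for sir3 the middle stood at 0 and the 100 bp nearest a gene at -0.01.

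**Figure D2:**
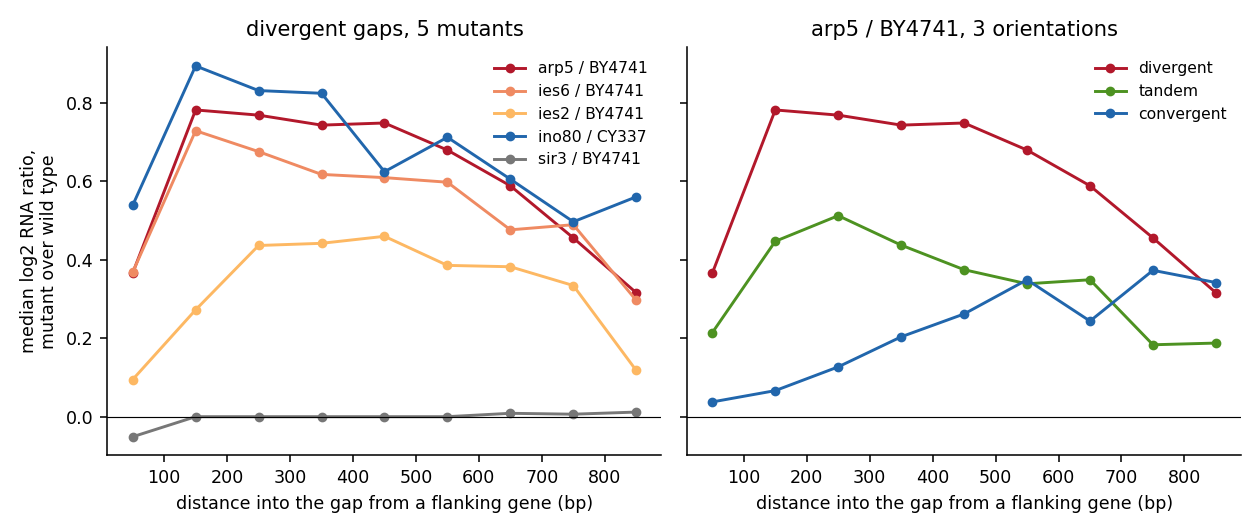
RNA ratio by distance into the gap from a flanking gene, in bp, as medians over 100 bp windows of the authors' deposited tables, for divergent gaps in 5 mutants (left) and for 3 orientations in arp5 (right). In divergent gaps the arp5 ratio is 0.37 in the first 100 bp and 0.78 in the next 100 bp.

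Set against the mean over their own genes, divergent gaps had a median excess of 0.63 in arp5, 0.58 in ies6, 0.26 in ies2, 0.61 in ino80 and 0.05 in sir3, in the authors' deposited tables. Weakly expressed genes, grouped by the wild-type level that is also the denominator of the ratio, had higher ratios over their bodies too. In the authors' deposited table for arp5, the 51 bordering genes under 1 FPKM in BY4741 had a median body ratio of 0.59 and the 127 genes at 1 to 5 FPKM also 0.59. The 982 genes at 20 to 100 FPKM had 0.04, and the 674 genes at 100 FPKM or more had -0.05. In sir3 the same 51 genes under 1 FPKM had 0.32 in the authors' deposited table, against -0.10 for the genes at 20 to 100 FPKM. In ino80 the 396 genes at 5 to 20 FPKM in CY337 had a body ratio of 0.60 in the authors' deposited table. The level of RNA in the gaps is not in these tables, so its part in the gap ratios was not tested.

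The arp5 and ino80 comparisons have separate wild types, and 270 divergent gaps were more than 2-fold higher in both, in the authors' deposited tables. These are 60.3% of the arp5 gaps and 50.8% of the ino80 gaps, where 43.8% of all divergent gaps passed in ino80 and 36.9% in arp5. Over gaps of all orientations the shared gaps were 57.4% of the arp5 gaps and 39.1% of the ino80 gaps, where 35.4% passed in ino80 and 24.1% in arp5. For ies6 and ino80 the shared gaps number 254, which are 60.2% of the ies6 gaps and 47.8% of the ino80 gaps. Over all 1213 gaps the rank correlation of arp5 and ino80 ratios was 0.31. The gaps share pooled libraries and their depth, so this describes those tables.

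The gaps' gain in arp5 varied little with Arp5 binding. In the authors' deposited table, the 96 gaps with no Arp5 window in the binding list had a median of 0.86, and the 535 gaps with every window listed had 0.76. The rank correlation of the ratio in that deposited table by the authors with the share of listed windows was -0.05 over 1213 gaps, with gap length -0.03, and with H3K4me3 in BY4741 -0.01. In ies2 the correlation with H3K4me3 was -0.23 and with length 0.20. These points share a library for each measure.

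The highest gaps were picked after their values were seen, by the smallest ratio among arp5, ies6 and ino80, over gaps more than 20 kb from a chromosome end. OM14-COQ21 (chrII:680051-680361), beside the gene of the mitochondrial outer membrane protein Om14, stood at 2.67 in arp5, 2.66 in ies6, 1.501 in ies2, 2.84 in ino80 and 2.02 in sir3, in the authors' deposited tables. This gap was thus high in sir3 as well. NGL2-MRPL33 (chrXIII:841692-841941), beside a mitochondrial ribosomal protein gene, had 2.61 in arp5, 3.15 in ies6, 2.41 in ies2, 2.64 in ino80 and 0.74 in sir3 in the same deposited tables of the authors. THP3-MCM16 (chrXVI:656553-656798), beside the kinetochore gene MCM16, had 2.52 in arp5, 4.29 in ies6, 1.71 in ies2, 2.89 in ino80 and 0.29 in sir3 in the authors' deposited tables. Both of its genes stayed near wild type: MCM16 had 32.9 FPKM in arp5, against 40.6 in BY4741, and THP3 had 27.2 FPKM in arp5, against 30.5 in BY4741. SPO16-RTT107 (chrVIII:402683-402965), whose second gene acts in DNA damage repair, reached 3.22 in arp5 and 3.27 in ino80, and -0.69 in sir3, in the authors' deposited tables.

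Some gaps had less RNA instead. TMH11-STE18 (chrX:585438-586067), beside the gene of a G protein subunit of pheromone signalling (gamma), stood at -1.99 in arp5, -1.34 in ies6, 0.30 in ino80 and -2.49 in sir3 in the authors' deposited tables. STE18 itself had 70.2 FPKM in arp5, against 514 in BY4741. The tables cannot tell RNA of the gap from the upstream untranslated stretch of STE18.

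Most gaps with more RNA lay between genes that kept within 2-fold, but so did most other gaps. The shares were close in arp5, ies6 and ino80, and lower than in the other gaps in ies2 and sir3. Of 425 gaps past 2-fold in arp5 whose genes were both counted, 358 (84.2%) had neither gene past 2-fold, beside 85.8% of the other gaps. The counts were 353 of 398 gaps (88.7%) in ies6, beside 87.8%, and 431 of 516 gaps (83.5%) in ino80, beside 81.6%. In ies2 the share was 87.8% (180 of 205 gaps), beside 93.8%, and in sir3 89.5% (51 of 57 gaps), beside 96.2%. Both genes were higher in 4 such gaps in arp5, 4 in ies6, 2 in ies2 and 6 in ino80. Genes were counted at 5 FPKM or more in either genotype, and changes were taken as log2 of FPKM plus 1, which understates the change of low genes.

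Arp5 was listed over most divergent gaps in CY1838. The authors deposited a list of significant 50 bp windows, and it holds 73.3% of the windows in divergent gaps, beside 35.1% of all windows and 21.5% of those in genes. Tandem gaps had 75.2% and convergent gaps 73.5%, so divergent gaps did not stand apart. At least 1 listed window lay in 1117 of the 1213 gaps (92.1%), and every window was listed in 535 gaps (44.1%). Among 814 gaps whose genes are both at least 500 bp long, the listed share averaged 66.7% in the gap and 26.5% in the first 500 bp of the genes. The gap was above both genes in 558 of these and below both in 13.

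Among gaps more than 20 kb from a chromosome end, the strongest windows lay in ARB1-PHM8 (chrV:225200-225888) at a log2 of 2.16 over input, PEX29-DIG2 (chrIV:1416875-1417398) at 2.15, DIG1-CAM1 (chrXVI:463840-464400) at 2.11 and YPL025C-RMI1 (chrXVI:503031-503516) at 2.09. All windows of those 4 gaps were listed. DIG1 and DIG2 encode inhibitors of the mating transcription factor Ste12.

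H3K4me3 dipped in the middle of divergent gaps and was highest in or near the start of the bordering genes. In gaps under 300 bp its median peaked 250 bp from the centre, at 1.81 in arp5 and 1.78 in BY4741, against 0.54 in arp5 and 0.48 in BY4741 at the centre. The median over gaps of the log2 ratio over input was 0.40 in arp5 and 0.40 in BY4741. Tandem gaps had -0.53 in arp5 and -0.40 in BY4741, and convergent gaps had -2.15 in arp5 and -2.09 in BY4741. Among 814 gaps, the gap had less H3K4me3 than the first 500 bp of both genes in 610 in arp5 and in 665 in BY4741. Short gaps held more of the mark: gaps under 300 bp had a median of 0.90 in arp5 and 0.85 in BY4741, while gaps of 500 to 1000 bp had -0.29 in arp5 and -0.31 in BY4741. In BY4741 the 1055 gaps with both genes at 5 FPKM or more had a median of 0.50, the 138 gaps with 1 such gene -0.92 and the 20 gaps with none -3.83.

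**Figure D3:**
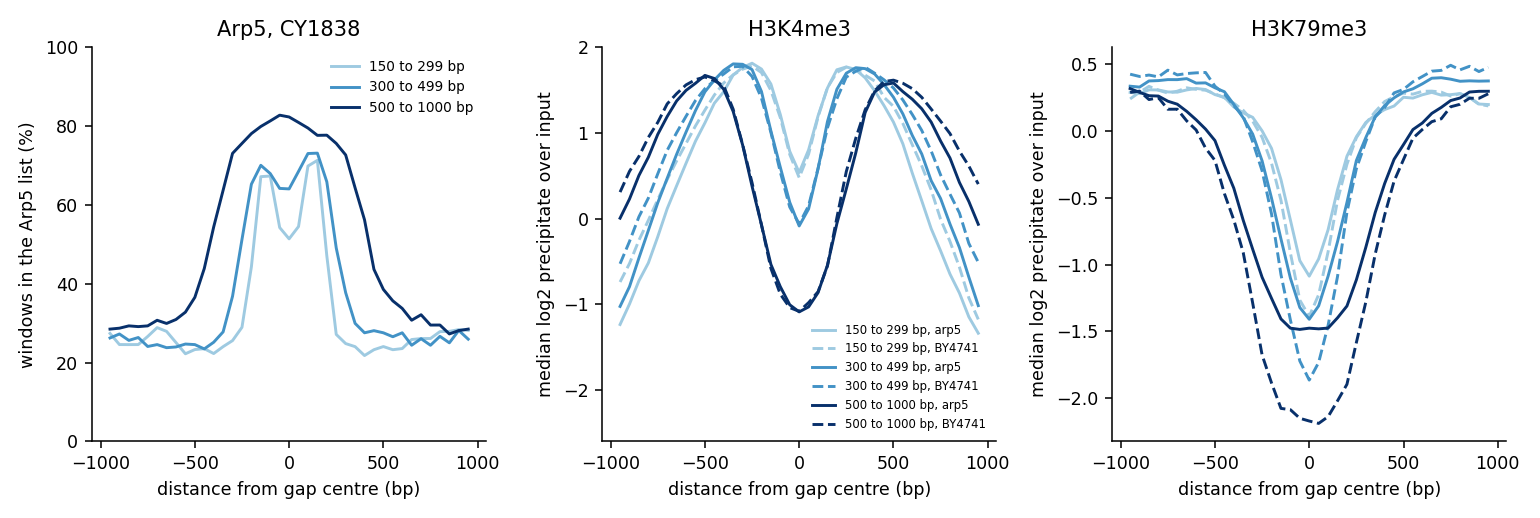
Arp5, H3K4me3 and H3K79me3 around the centre of divergent gaps in 3 length classes, as the share of windows in the authors' Arp5 list in percent and the median log2 ratio over input in arp5 (solid) and BY4741 (dashed). At the centre of gaps of 500 to 1000 bp, 82.3% of windows are listed for Arp5 and H3K79me3 is -1.48 in arp5 and -2.17 in BY4741.

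Without regard to the BY4741 level, the larger difference between arp5 and BY4741 was in H3K79me3. Its median over gaps was -1.11 in arp5 and -1.49 in BY4741, and the difference per gap had a median of 0.43 and was above 0 in 1041 gaps (85.8%). Tandem gaps differed by as much, with 0.44, and convergent gaps by 0.29. In the windows of genes the median difference was -0.08. Differences were larger where BY4741 was low: the rank correlation of the difference with the BY4741 level was -0.78 over 1213 gaps, and these measures share the BY4741 library. Relative to windows of the same BY4741 level anywhere in the genome, divergent gaps differed by -0.15 in H3K79me3 and by 0.25 in H3K4me3. By the same measure tandem gaps differed by -0.13 in H3K79me3 and 0.13 in H3K4me3, and convergent gaps by -0.08 and -0.02. For H3K79me3 the authors' deposited table comparing arp5 directly with BY4741 gave a median of 0.51. How the tables were scaled is not stated in the sources used here, and with 1 library of each its part in these shifts was not tested.

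Single gaps moved further, and those named here for the size of their difference lie more than 20 kb from a chromosome end unless stated. FAR1-YJL156W-A (chrX:126329-126603), beside the gene that arrests the cell cycle during mating, had H3K4me3 of -2.82 in arp5 and -0.19 in BY4741. GYP8-STE2 (chrVI:81913-82579), beside the alpha-factor receptor gene STE2, had H3K79me3 of -0.67 in arp5 and -2.66 in BY4741, and H3K4me3 of 0.90 in arp5 and -0.60 in BY4741. YFL015C-HSP12 (chrVI:106964-107255) had H3K4me3 of -1.45 in arp5 and -3.22 in BY4741, and HSP12, a membrane protein gene of the stress response, had 4909 FPKM in arp5 and 797 FPKM in BY4741. Its neighbour YFL015C had 2.18 FPKM in arp5 and 0.239 FPKM in BY4741. CHC1-POX1 (chrVII:107505-108157), beside the peroxisomal acyl-CoA oxidase gene POX1, had H3K4me3 of -0.94 in arp5 and -2.84 in BY4741. H3K4me3 was higher by 2.20 in MATALPHA2-MATALPHA1, and HMLALPHA2-HMLALPHA1, which lies within 20 kb of a chromosome end, had -0.85 in arp5 and -4.35 in BY4741. These cassettes are nearly the same in sequence, so their reads could be split, and the higher H3K4me3 cannot be placed at either locus. Over 1135 gaps the rank correlation between the mean RNA change of both genes in arp5 and the H3K4me3 difference was -0.02, and with the H3K79me3 difference -0.04, the points sharing 1 library per mark and strain.

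The 2 genes of a divergent gap were seldom both past 2-fold. In arp5 both genes were more than 2-fold higher in 9 of 1135 counted gaps and lower in 2, beside 6.45% of all counted genes higher and 3.99% lower. In ies6 they were higher in 5 of 1119 gaps and lower in 2, beside 5.72% and 3.62% of genes. In ies2 they were higher in 2 of 1109 gaps and lower in 0, beside 3.89% and 1.87%. In ino80 they were higher in 22 of 1151 gaps and lower in 5, beside 8.26% and 5.12%. In sir3 they were higher in 0 of 1091 gaps and lower in 2, beside 1.96% and 2.14%. The double mutant sir3 arp5 had the most, with 43 of 1124 gaps higher and 18 lower, beside 16.7% and 10.4%, from its 1 library. These percentages are of single genes, not of pairs. Both genes passed the same way in 17 of 2207 tandem and 10 of 980 convergent pairs in arp5. The counts were 15 of 2196 and 7 of 971 in ies6, and 6 of 2187 and 2 of 972 in ies2. They were 36 of 2271 and 14 of 1004 in ino80, and 2 of 2144 and 4 of 962 in sir3. In sir3 arp5 they were 110 of 2204 and 40 of 977. In divergent gaps the 2 genes went past 2-fold in opposite ways in 3 gaps in arp5, 2 in ies6, 3 in ies2, 2 in ino80, 1 in sir3 and 18 in sir3 arp5. Past 2-fold either way were 10.4% of all counted genes in arp5, 9.35% in ies6, 5.75% in ies2, 13.4% in ino80, 4.10% in sir3 and 27.1% in sir3 arp5.

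**Figure D4:**
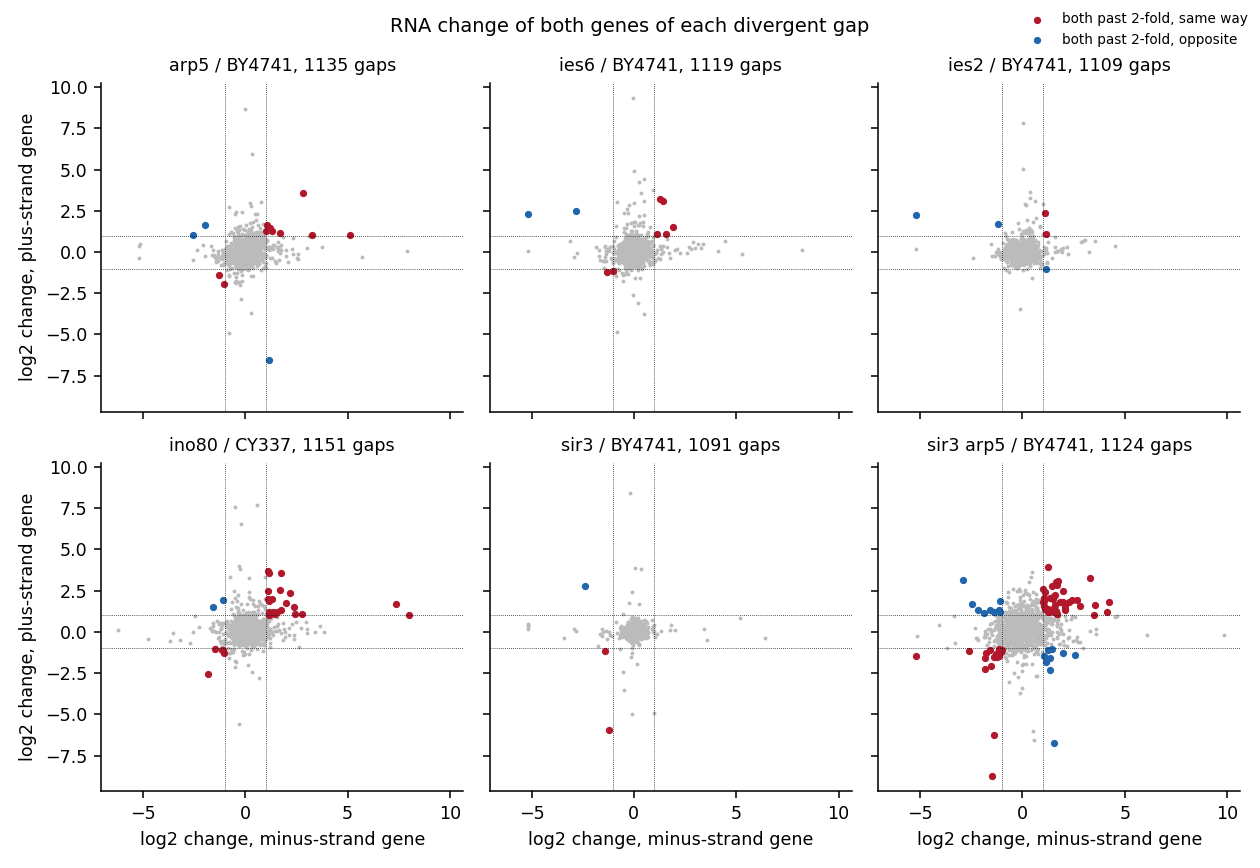
RNA change of the minus-strand gene (x axis) and the plus-strand gene (y axis) of each divergent gap, as log2 mutant over wild type from FPKM plus 1; red points are gaps with both genes past 2-fold the same way and blue points those past it in opposite ways. The 9 gaps with both genes higher in arp5 and the 22 in ino80 lie at the upper right.

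Of the called genes bordering a divergent gap in ino80, 23.4% had a partner called the same way, against 14.04% in tandem and 12.7% in convergent neighbours. Among the 27 divergent gaps with both genes changed the same way in ino80, 8 lay on chromosome III, each with both genes higher. That chromosome holds 28 of the 1213 divergent gaps. In arp5 the shares were 12.1% in divergent, 8.02% in tandem and 11.98% in convergent neighbours. In ies6 they were 9.86%, 8.20% and 9.27%, in ies2 4.65%, 5.38% and 4.301%, and in sir3 8.33%, 3.67% and 14.3%, in the same order. In sir3 arp5 they were 23.97%, 19.1% and 18.8%. The rank correlation of the 2 genes' changes over gaps was 0.23 in arp5, 0.15 in ies6, 0.07 in ies2, 0.14 in ino80, 0.16 in sir3 and 0.20 in sir3 arp5. Over all counted genes, changes along gene bodies in the authors' deposited tables followed the FPKM changes with a rank correlation of 0.91 in arp5, 0.89 in ies6 and 0.48 in ino80. Of the pairs named by rule below, 3 of 8 in arp5, 0 of 7 in ies6, 0 of 4 in ies2, 0 of 10 in ino80 and 1 of 3 in sir3 had both genes past 2-fold in both tables. The named pairs of ies6, ies2 and ino80 thus went past 2-fold in the FPKM table only.

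By the smaller of both changes, the largest joint difference in arp5 was in SNO1-SNZ1 (chrXIII:457960-458407), a pair that acts in vitamin B6 synthesis. SNO1 had 77.1 FPKM in arp5 and 10.04 FPKM in BY4741, and SNZ1 had 202 FPKM in arp5 and 16.3 FPKM in BY4741, log2 changes of 2.82 and 3.55. The genes had 12.03 and 26.2 FPKM in ies6 and 13.9 and 32.2 FPKM in ies2, which is closer to BY4741. In the 1 library of sir3 arp5, which also lacks ARP5, they had 8.81 and 20.9 FPKM, log2 changes of -0.17 and 0.35. The gain in arp5 was thus not seen in the double mutant. In ino80 they had 25.7 and 57.3 FPKM, against 45.3 and 173 FPKM in CY337, changes of -0.79 and -1.57. The authors' deposited table gave changes of 1.67 and 2.53 over the gene bodies in arp5. The paralogous pairs SNO2-SNZ2 and SNO3-SNZ3 did not follow: SNZ2 had 49.9 FPKM in arp5 and 16.7 FPKM in BY4741, while SNO2 had 17.1 FPKM in arp5 and 22.3 FPKM in BY4741. Those 2 pairs are near copies of each other, so their reads could be split.

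LOH1-IRC18 (chrX:375775-376661) was higher past 2-fold in 4 mutants, of which arp5, ies6 and ies2 share the BY4741 column. LOH1 had 43.7 FPKM in arp5, 39.6 in ies6 and 29.8 in ies2, against 12.9 in BY4741, and 63.9 in ino80, against 13.4 in CY337. IRC18 had 21.3 FPKM in arp5, 19.6 in ies6 and 19.6 in ies2, against 8.82 in BY4741, and 19.96 in ino80, against 3.14 in CY337. The biotin synthesis pair BIO4-BIO3 (chrXIV:734070-734290) was past 2-fold in arp5, ies6 and ino80. BIO4 had 43.7 FPKM in arp5 and 41.7 in ies6, against 18.9 in BY4741, and 76.9 in ino80, against 33.9 in CY337. BIO3 had 19.7 FPKM in arp5 and 16.3 in ies6, against 6.97 in BY4741, and 34.5 in ino80, against 16.7 in CY337. VBA5-GEX2 (chrXI:660465-661441), a pair of membrane transporter genes with close relatives elsewhere, had 10.5 and 14.3 FPKM in arp5, against 3.72 and 5.35 in BY4741.

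In the other direction, ERS1-EGO2 (chrIII:248816-248974) was lower in arp5 and ies6. ERS1 had 15.9 FPKM in arp5 and 15.4 in ies6, against 40.2 in BY4741, and EGO2, which encodes a vacuolar signalling subunit, had 157 in arp5 and 178 in ies6, against 409 in BY4741. In the 1 library of sir3 arp5, ERS1 had 98.4 FPKM and EGO2 627 FPKM, above BY4741. This pair lies on chromosome III beyond the MAT locus. Counted genes there had a median log2 change of -0.80 in arp5, -0.90 in ies6, 1.09 in ino80 and 0.94 in sir3 arp5. The rest of the chromosome was not summarized, and in ino80 jointly higher pairs also lay on its left arm, such as YCL049C-YCL048W-A. In sir3 only GYP8-STE2 and SNO3-SNZ3 were lower as pairs, GYP8 with 12.4 FPKM in sir3 and 30.4 FPKM in BY4741.

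**Figure D5:**
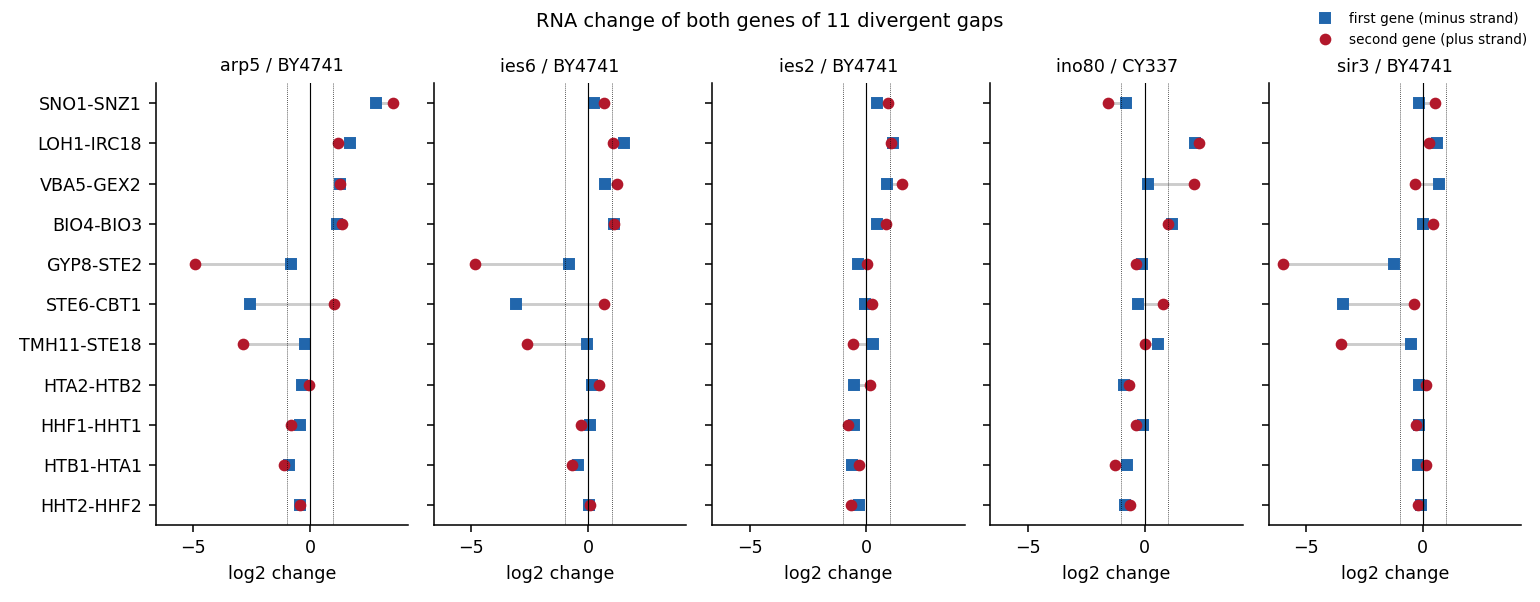
RNA change of both genes of 11 divergent gaps in 5 mutants, as log2 mutant over wild type from FPKM plus 1; blue squares are the minus-strand gene, red circles the plus-strand gene and dotted lines mark 2-fold. SNO1-SNZ1 lies at 2.82 and 3.55 in arp5, while GYP8-STE2, STE6-CBT1 and TMH11-STE18 split in arp5, ies6 and sir3, with the mating gene far lower than its partner.

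Gene groups were then read across their divergent partners. The lists were chosen with earlier results of these data known, and group medians are descriptions. Mating genes moved mostly without their partners. The list has 5 that border a divergent gap, namely FUS3 (a kinase), STE2, FAR1, STE18 and STE6 (the a-factor exporter). In FPKM, 4 of the 5 were more than 2-fold lower in arp5, beside 3.99% of all counted genes, and 5 in ies6, beside 3.62%. In ies2 0 were, beside 1.87%, and in ino80 0, beside 5.12%. In sir3 5 were, beside 2.14%, and in the 1 library of sir3 arp5 5, beside 10.4%. The partner was lower past 2-fold in 0 cases in arp5 and ies6 and in 1 case, GYP8, in each of sir3 and sir3 arp5. STE2 had 13.5 FPKM in arp5 and 14.2 in ies6, against 432 in BY4741, while its partner GYP8 had 16.9 in arp5 and 16.6 in ies6, against 30.4. STE6 had 7.35 FPKM in arp5, against 48.0 in BY4741, and its partner CBT1 had 66.5 in arp5, against 31.97. The median log2 change of the 5 mating genes was -2.85 in arp5, -3.10 in ies6 and -3.52 in sir3, beside partner medians of -0.22, -0.05 and -0.38.

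Ribosomal protein genes border 49 divergent gaps, 4 of them with such a gene on each side. With 44 pairs of a ribosomal protein gene and another gene counted, the members' median log2 change was -0.41 in arp5, against a partner median of 0.01. In arp5 1 member was more than 2-fold lower, beside 3.99% of all counted genes. The corresponding medians were -0.53 and -0.09 in ies6 and -0.46 and 0.05 in ies2. The 4 histone pairs HTA2-HTB2, HHF1-HHT1, HTB1-HTA1 and HHT2-HHF2 kept within 2-fold in arp5 and ino80 apart from HTA1, which had 1848 FPKM in arp5, against 3999 in BY4741, and 1686 in ino80, against 4054 in CY337. The histone genes are near copies of each other, so their values are uncertain. The amino acid synthesis list was taken by symbol, such as ARG or MET, so it holds ARG80, ARG81, ARG82, MET18 and MET32 whatever their role. Of 18 counted genes of that list with another gene as partner, 3 were more than 2-fold higher in arp5, beside 6.45% of all counted genes. The count was 0 in ies6, ies2, ino80 and sir3, and 6 in sir3 arp5, beside 16.7%. In ino80 1 was lower, beside 5.12% of all counted genes, and 0 of the partners went past 2-fold the same way in any of the mutants. Of 4 counted stress genes with another gene as partner, 2 went past 2-fold in arp5, each lower, beside 10.4% of all counted genes. In ies6 3 did, of which 2 were higher and 1 lower, beside 9.35%. In ies2 1 did, which was higher, beside 5.75%. In ino80, 2 of the 3 counted were lower, beside 5.12% of genes lower. These counts leave out HSP12, whose partner YFL015C was under 5 FPKM in both genotypes, and in ino80 GPH1 for the same reason. HSP12 had log2 changes of 2.62 in arp5, 4.73 in ies6, 3.66 in ies2 and 4.29 in ino80. It was also past 2-fold in sir3, at 1.64, and stood at 0.12 in the 1 library of sir3 arp5. GPH1 had 1.11 in ino80. PNC1, a nicotinamidase gene, had 368 FPKM in arp5, against 989 in BY4741, and DDR48 had 37.1 FPKM in arp5, against 135 in BY4741. TPS1, which makes trehalose, had 371 FPKM in ies6, against 149 in BY4741, and its partner MEO1 had 2451 FPKM in ies6, against 2679 in BY4741.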

How the data were processed

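RNA and ChIP values were used as deposited in build sacCer3. RNA libraries were mapped with TopHat2 2.0.8 and Bowtie and quantified with Cuffdiff 2.0.2, per the submitters' processing notes, which name Bowtie 0.12.9 for ChIP. The RNA kit does not keep strand, per the labels' protocols. FPKM values were deposited as 1 column per genotype for 6664 genes; which libraries entered each column is not stated in the sources used here. ChIP values were deposited as log2 of precipitate over input in 50 bp windows. RNA along genes was deposited by the authors as log2 values, each mutant relative to its wild type, over 35 windows of a gene and its surroundings. Their window thresholds and scaling are not stated in the sources used here.

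Gaps, window assignment (by centre for ChIP, wholly inside the gap for RNA) and changes were computed with Python 3.11.15, pandas 2.3.3, NumPy 2.4.6 and SciPy 1.17.1. Genes were counted at 5 FPKM or more in either genotype, a pseudocount of 1 was added, and past 2-fold means a log2 change above 1. Deleted genes were left out. Pairs named by rule are the 4 highest and 4 lowest jointly changed pairs and the 2 most opposite per mutant, leaving out genes listed at 0. The members and lists were chosen with earlier results of these data known. The scripts were checked on simulated data. Window order was checked where windows of both genes cover the same stretch in 69 gaps. Strand-specific tables hold only 1 gene that borders a divergent gap and were not used.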

Additional observations from a re-analysis of the deposited data

Results flagged for a closer look

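In some divergent gaps both genes moved one way in ies6 and the other way in ino80. YMR194C-A-ICY1 had log2 changes of 1.92 and 1.51 in ies6, against BY4741, and of -1.05 and -1.26 in ino80, against CY337. YNR075C-A-PAU6 had changes of -1.01 and -1.14 in ies6 and of 1.17 and 1.86 in ino80. PAU6 belongs to a family of near-identical genes, so its reads could be split. Genes of chromosome III beyond MAT, which include the ERS1-EGO2 gap, had a median log2 change of -0.80 in arp5, -0.90 in ies6 and 1.09 in ino80. The median was 0.94 in sir3 arp5, which also lacks ARP5 and has BY4741 as its reference. Over all counted genes the medians were -0.003 in arp5, -0.012 in ies6, -0.010 in ino80 and 0.026 in sir3 arp5. The rest of chromosome III was not summarized. In ino80 jointly higher pairs also lay outside that stretch, such as YCL049C-YCL048W-A on the left arm, with changes of 1.69 and 2.57. None of these differences was tested, because each genotype has 1 column. The wild type of ino80 differs from that of the other mutants.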

How the results depend on the processing

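No paired analysis was possible because the RNA values are pooled columns that carry no replicate numbers; for the same reason no replicate could be left out. Of 137 recomputed comparisons, 93 stayed near the reported value (counts within 1.5 times, other values within their 95% interval), 43 moved further and 1, RNA in sir3 gaps, changed sign. That interval was taken over gaps, which share libraries, so it holds no error between libraries. The number of gaps whose genes both changed the same way, main 11 in arp5, 7 in ies6, 2 in ies2, 27 in ino80, 2 in sir3 and 61 in sir3 arp5, became 4, 3, 0, 27, 1 and 39 with a pseudocount of 5. Gene-body windows in place of FPKM gave 3, 1, 0, 6 and 1 for the 5 mutants that have a table. With genes of at least 300 bp it was 4 in ies6 and 17 in ino80. With gaps up to 500 bp it was 1 in ies2, 17 in ino80, 1 in sir3 and 40 in sir3 arp5. For ies2 it was 5 with a pseudocount of 0.1, 4 without a filter, 4 after centring and 1 at a mean of 10 FPKM. For sir3 it was 5 without a filter and 1 beyond 20 kb of an end. Gene-body windows turned YCL049C-YCL048W-A to -0.016, YMR306C-A-GAS1 to 0.38 and POR1-YNL054W-A to 0.070 in ino80, and of 200 checks of named pairs 55 lost the 2-fold mark. Gaps with an Arp5 window were 88.3% with windows wholly inside and 88.7% up to 500 bp. H3K4me3 became 1.51 in arp5 and 1.43 in BY4741 with the highest window, and 0.76 and 0.72 up to 500 bp. H3K79me3 became -1.17 in arp5 and -1.58 in BY4741 with windows wholly inside, -0.47 and -0.63 with the highest window, and -0.98 and -1.23 up to 500 bp. Its difference became 0.16 with the highest window, 0.31 up to 500 bp and 0.51 in the authors' deposited table. RNA in gaps of 300 to 1000 bp was 0.64 in ies6, 0.44 in ies2 and 0.80 in ino80 in the authors' deposited tables. Away from the first 100 bp, chosen after seeing the data, it was 0.86 in arp5, 0.76 in ies6, 0.52 in ies2 and 0.000178 in sir3. The cause of these shifts was not tested.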
